A study of Mus musculus with 9 samples.

Results

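Ifng encodes interferon-γ, the main cytokine by which CD8 T cells activate macrophages and raise antigen presentation in other cells. The genes described here are the rows of the deposited expression table whose locus midpoint lies within 500 kb of the midpoint of Ifng on mouse chromosome 10. They number 7 of 23946 rows: Mdm1, Il22, Iltifb, Ifng, Tmevpg1, Dyrk2 and C230029M16. Ifng, Tmevpg1, Il22 and Mdm1 were picked by name with their values in these groups already known, so their differences are given as a description with no test. The other 3 were taken for their position alone.

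The data are 9 RNA sequencing libraries of mouse CD8 T cells, 3 in each of 3 groups. All donor mice carried hCD2-Cre, a Cre recombinase under control of human CD2 sequences, and Rosa26-lsl-GFP, a reporter that Cre switches on. The groups were wild type (WT), donors with floxed Ctcf labelled CTCF-/- (CTCF KO), and donors with both genes of the Tcf1/Lef1 pair floxed, labelled Tcf1-/-Lef1-/- (DKO). Tcf1 is the product of Tcf7. Spleen cells were depleted of non-T cells, CD4+ cells and CD44 high cells, stained with the division dye CTV and placed in Rag1 KO hosts. Such hosts lack B and T lymphocytes but keep natural killer cells and myeloid cells. After 72 h, cells positive for CTV, TCRβ, GFP and CD8 were sorted from host spleens. The source names also read "stim", with no stimulus described other than the transfer. The donors' ages are not given in the sources used here, nor is it stated that a group's libraries stem from different mice, and their spread may then be technical. The human CD2 element is active throughout T cell development, so deletion could precede the transfer.

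Values are FPKM, a measure of fragments that corrects for transcript length and library size, and a group is given as mean ± SD of 3 libraries. Summed FPKM per library ran from 629663 to 702470, and 9613 to 9832 genes reached 1 FPKM. Absolute depth is unknown because no counts are given. The CD8 T cell markers Cd3d, Cd3e, Cd3g, Cd247, Cd8a, Cd8b1, Cd5, Thy1 and Lck were present, with summed FPKM of 6749 to 7338 in WT, 7530 to 8174 in CTCF KO and 7525 to 8089 in DKO. Of the targeted genes, Lef1 fell from 360, 338 and 339 FPKM in WT to 95.7, 87.4 and 89.0 in DKO. Tcf7 read 259, 262 and 249 FPKM in WT and 339, 333 and 355 in DKO. Ctcf read 18.6, 20.3 and 32.7 FPKM in WT and 20.2, 17.1 and 17.6 in CTCF KO, which was not called lower (limma, adjusted p = 0.319). A gene-level FPKM includes exons outside a floxed part, so it need not fall with a deletion; CTCF KO and DKO below mean the libraries labelled so. Y-linked transcripts (Ddx3y, Eif2s3y, Uty and Kdm5d) summed to 90.0 to 101 FPKM in CTCF KO and 0.246 to 2.03 in the 6 other libraries, so sex and the CTCF KO group cannot be told apart.

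As background, the Ifng gene is opened as T cells become effectors, under the T-box factors T-bet (Tbx21) and Eomes and the signals of interleukins 12 and 18. Tmevpg1, also called NeST or Ifngas1, is a long noncoding RNA made next to Ifng that promotes Ifng transcription in mouse T cells. CTCF, a DNA-binding factor that holds chromatin loops in place with cohesin, binds around the locus in helper T cells. Il22 and its near copy Iltifb encode interleukin-22-type cytokines of innate lymphoid and helper T cells. Mdm1 encodes a microtubule-binding protein of centrioles, and Dyrk2 a protein kinase that acts on p53.

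On the build of the table, Ifng lies at chr10:117878102-117882948 and Tmevpg1 at chr10:117939090-117993581. Their rows do not overlap: 56.1 kb separate the higher coordinate of the Ifng row from the lower coordinate of the Tmevpg1 row. Tmevpg1 and Dyrk2 lie on the minus strand, so their transcription starts at the higher coordinate of the row. Mdm1 lies at chr10:117578842-117606055, 272 kb before the start of Ifng. Dyrk2 lies at chr10:118296404-118305959, its lower coordinate 303 kb beyond the higher coordinate of Tmevpg1. Il22 (chr10:117642019-117647102) and Iltifb (chr10:117726685-117732094) lie between Mdm1 and Ifng. C230029M16, which RefSeq lists as the noncoding gene Gm38403, lies at chr10:118357436-118364199. The row ends on RefSeq's GRCm38 were 562944 to 562946 bases larger for 6 of the 7 rows, so the table is not on GRCm38 (mm10), and mm9 is the other build in the submitters' processing notes.

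The 250 bases before the start of the 4 genes with signal are printed to show their base composition and motif matches. The GC index used further below rests on windows of transcripts, not on these bases. They are RefSeq sequences on GRCm38.p6, from chr10:118440796-118441045 (plus strand) for Ifng, chr10:118556526-118556775 (minus strand) for Tmevpg1, chr10:118141537-118141786 (plus strand) for Mdm1 and chr10:118868904-118869153 (minus strand) for Dyrk2. Each reads 5′ to 3′ along the gene, and capitals mark matches to a searched motif.
Ifng: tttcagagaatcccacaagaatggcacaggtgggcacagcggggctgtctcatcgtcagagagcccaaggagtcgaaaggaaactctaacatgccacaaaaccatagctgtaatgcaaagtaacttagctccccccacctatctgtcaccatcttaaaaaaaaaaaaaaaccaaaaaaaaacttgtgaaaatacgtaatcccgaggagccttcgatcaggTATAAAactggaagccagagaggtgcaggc
Tmevpg1: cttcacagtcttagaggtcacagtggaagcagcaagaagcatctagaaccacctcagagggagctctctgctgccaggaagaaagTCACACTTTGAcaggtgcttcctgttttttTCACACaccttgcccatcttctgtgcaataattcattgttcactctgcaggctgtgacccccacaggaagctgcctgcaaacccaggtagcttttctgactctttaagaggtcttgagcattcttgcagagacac
Mdm1: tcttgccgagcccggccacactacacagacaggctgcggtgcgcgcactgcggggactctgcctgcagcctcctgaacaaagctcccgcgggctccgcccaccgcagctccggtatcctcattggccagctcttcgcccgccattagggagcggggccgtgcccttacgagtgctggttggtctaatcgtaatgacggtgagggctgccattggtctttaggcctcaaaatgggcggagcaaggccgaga
Dyrk2: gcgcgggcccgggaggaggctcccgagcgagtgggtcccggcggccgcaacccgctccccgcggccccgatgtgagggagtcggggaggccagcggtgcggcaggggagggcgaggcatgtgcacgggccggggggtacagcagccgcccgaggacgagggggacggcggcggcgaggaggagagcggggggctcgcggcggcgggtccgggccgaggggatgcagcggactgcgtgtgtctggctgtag
The Ifng and Tmevpg1 stretches were 45.2% and 48.8% GC, with 6 and 0 CpG dinucleotides. The Mdm1 and Dyrk2 stretches were 64.0% and 78.8% GC, with 20 and 34 CpG, against a median of 52.0% GC over 27025 promoter stretches of that length.

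Motifs were searched on both strands as plain letters: GTGTGA for T-box factors, CTTTGA for TCF and LEF factors, TATAAA for a TATA element and, for the core of a CTCF site, CCA, any 2 bases, AG, any 2 bases and GGC. The Ifng stretch held TATAAA at 25 to 30 bases before the start, a match found in 13.0% of all promoter stretches. The Tmevpg1 stretch held TCACAC, the T-box letters read on the other strand, at 160 to 165 and at 130 to 135 bases before the start, and CTTTGA at 155 to 160, which shares 1 base with the first of them. GTGTGA occurred in 12.2% of all stretches and CTTTGA in 14.0%. The CTCF letters occurred in 2.06% of all stretches and in none of the 4. A match is a description of letters, not evidence of binding.

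Ifng was lower in both knockout groups, to a like level. It read 10.5, 11.7 and 12.1 FPKM in the WT libraries (11.4 ± 0.821), 2.57, 1.54 and 2.35 in CTCF KO (2.15 ± 0.544), and 1.99, 2.51 and 2.73 in DKO (2.41 ± 0.378). Every knockout library was under every WT library, and the CTCF KO and DKO ranges overlapped. The mean was 5.32-fold lower in CTCF KO than in WT and 4.75-fold lower in DKO. On the log2(FPKM + 1) scale, which understates the change of genes with low FPKM, the differences were -1.99 and -1.87 (SE 0.16 each). Counting Ifng itself, 15 of 10172 tested genes fell at least as far in CTCF KO and 216 in DKO. Both comparisons share the 3 WT libraries. In these bulk libraries, fewer cells with Ifng RNA and less Ifng RNA per cell cannot be told apart.

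Tmevpg1 was also lower in both knockout groups, and it was lowest in DKO. The WT libraries read 7.98, 6.77 and 5.67 FPKM (6.81 ± 1.15), the CTCF KO libraries 0.846, 0.904 and 1.39 (1.05 ± 0.301), and the DKO libraries 0.118, 0.185 and 0.289 (0.197 ± 0.0861). The 3 groups did not overlap with each other, and each DKO library was under each CTCF KO library. Mean FPKM was 6.50-fold lower in CTCF KO and 34.5-fold lower in DKO than in WT. The log2(FPKM + 1) differences were -1.93 and -2.70 (SE 0.16 each), and 19 and 97 tested genes fell at least as far, Tmevpg1 included. The library with the highest Tmevpg1 in WT, replicate 1, had the lowest Ifng of that group.

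The proportion of noncoding to cytokine RNA overlapped between WT and CTCF KO and was lower in DKO. Per length, the ratio of Tmevpg1 to Ifng FPKM was 0.758, 0.579 and 0.469 in WT and 0.330, 0.588 and 0.592 in CTCF KO, which overlap. In DKO it was 0.0595, 0.0736 and 0.106, under every library of the other groups. No test is given, because both genes were chosen with these values known.

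**Figure D1:**
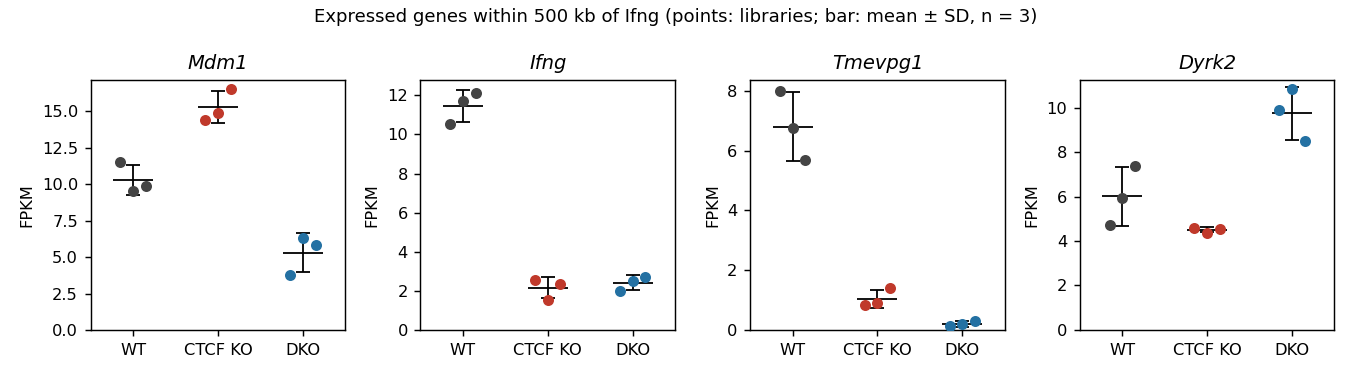
FPKM of Mdm1, Ifng, Tmevpg1 and Dyrk2 in each library (points) of WT, CTCF KO and DKO, with bars for the mean ± SD of 3 libraries. Ifng fell from 11.4 in WT to 2.15 and 2.41 on average, Tmevpg1 is lowest in DKO, and Mdm1 is highest in CTCF KO.

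Mdm1, on the other side of Ifng, was higher in CTCF KO and lower in DKO. It read 11.5, 9.53 and 9.89 FPKM in WT (10.3 ± 1.05), 14.4, 14.9 and 16.5 in CTCF KO (15.3 ± 1.11), and 3.78, 6.28 and 5.85 in DKO (5.30 ± 1.34). No group overlapped with another. Its mean was 1.48-fold higher in CTCF KO than in WT and 1.95-fold lower in DKO. The log2(FPKM + 1) differences were 0.53 and -0.86 (SE 0.16 each). Shifts of that size were common: 398 tested genes rose at least as far in CTCF KO and 600 fell at least as far in DKO.

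Dyrk2, which was chosen by position and so carries a test, was not called in CTCF KO and rose in DKO. The WT libraries read 4.74, 5.92 and 7.39 FPKM (6.01 ± 1.33), the CTCF KO libraries 4.60, 4.38 and 4.56 (4.51 ± 0.113), and the DKO libraries 9.88, 10.9 and 8.50 (9.75 ± 1.18). CTCF KO libraries all lay under WT, by -0.33 on the log2(FPKM + 1) scale (SE 0.15, adjusted p = 0.213). DKO libraries all lay above WT, by 0.63 (SE 0.15, adjusted p = 0.0101), or 1.62-fold. In the authors' deposited table the q-values for Dyrk2 were 0.346 for CTCF KO and 0.0413 for DKO against WT. Over all 10172 tested genes, 12.2% were called in CTCF KO and 40.4% in DKO by limma, and 9.48% and 28.9% had such a q under 0.05.

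The DKO rise of Dyrk2 moved with a library property. A GC index, the mean deviation of genes holding a 100-base transcript window of at least 80% GC minus that of other genes, was -0.506, -0.180 and 0.134 in WT, 0.0460, -0.297 and -0.359 in CTCF KO, and 0.365, 0.458 and 0.339 in DKO. The highest such window was 83% GC in Dyrk2, 72% in Mdm1, 61% in Ifng and 56% in Tmevpg1. With the index as a covariate, chosen after seeing the data, the Dyrk2 difference in DKO was 0.26 with an adjusted p of 0.410, while Ifng stood at -2.09 and Tmevpg1 at -2.32. Under the other alternatives run for Dyrk2 in DKO, the adjusted p lay between 0.00378 and 0.0372. The index is higher in every DKO library than in any other, so it cannot be told apart from the DKO group.

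The remaining 3 rows had almost no signal. Il22 was listed at 0 in all 9 libraries. Iltifb was listed at 0 except for 0.0942 FPKM in CTCF KO replicate 3, and reads of Il22 and Iltifb may be split between these near-identical copies. C230029M16 was listed at 0 except for 0.0260 FPKM in WT replicate 3 and 0.0495 in DKO column 2. They did not pass the filter of at least 1 FPKM in at least 3 libraries, so 4 of the 7 rows were fitted. All 4 had libraries that did not overlap with WT in either comparison. That held for 30.4% of tested genes in CTCF KO and 54.1% in DKO, and nothing is read from it for the genes chosen with values known. The last row inside the window, C230029M16, lies 480 kb from Ifng. The nearest rows outside it were 4933411E08Rik at 507 kb on one side, with means of 0.0249, 0.0361 and 0.0830 FPKM in WT, CTCF KO and DKO, and 1700064J06Rik at 655 kb on the other, listed at 0 in all libraries.

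The wider neighbourhood held few tested genes, of which some were called in DKO and none in CTCF KO. Within 1 Mb of Ifng, 7 tested genes were chosen by position alone, 6 of them outside the window. By limma 0 of the 7 were called in CTCF KO, 0 had an unadjusted p under 0.05, and 1, Rap1b, had a q under 0.05 in the authors' deposited table. In DKO 2 of the 7 rose, Dyrk2 and Slc35e3, and 2 fell, Cpm and Nup107, against 18.5% higher and 21.9% lower over all tested genes. The genes outside the window were named after their values were seen. In DKO 5 of the 7 had a q under 0.05 in the authors' deposited table, Rap1b besides these 4, against 28.9% of all tested genes. With the GC index as a covariate, 2 of the 7 were called in DKO, Cpm and Mdm2.

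Cpm, which encodes a carboxypeptidase of the cell surface 785 kb from Ifng, was level between WT (14.4 ± 1.18) and CTCF KO (14.6 ± 0.744; adjusted p = 0.969). In DKO it fell to 1.24 ± 0.435 FPKM, 11.6-fold lower (log2 difference -2.80, SE 0.15, adjusted p = 7.46e-07). Nup107, a nuclear pore gene, fell from 101 ± 14.2 to 69.7 ± 3.36 FPKM in DKO (adjusted p = 0.00445). Slc35e3, a solute carrier family member, read 0.394, 0.782 and 3.26 FPKM in WT and 6.05, 5.80 and 6.21 in DKO (adjusted p = 0.00831). Without its DKO libraries Slc35e3 would not have passed the filter, so its call is given as a description. Rap1b, a small GTPase gene, read 39.6, 84.2 and 413 FPKM in WT, 270, 52.1 and 50.7 in CTCF KO, and 534, 495 and 574 in DKO, and was called in neither comparison by limma (adjusted p = 0.878 and 0.0575), with q-values of 0.00317 and 0.000488 in the authors' deposited table. In Slc35e3 and Rap1b the highest WT library was replicate 3 and the highest CTCF KO library was replicate 1, the libraries with the highest GC index of their groups. Mdm2, which encodes the ubiquitin ligase of p53, and Cand1 were not called.

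**Figure D2:**
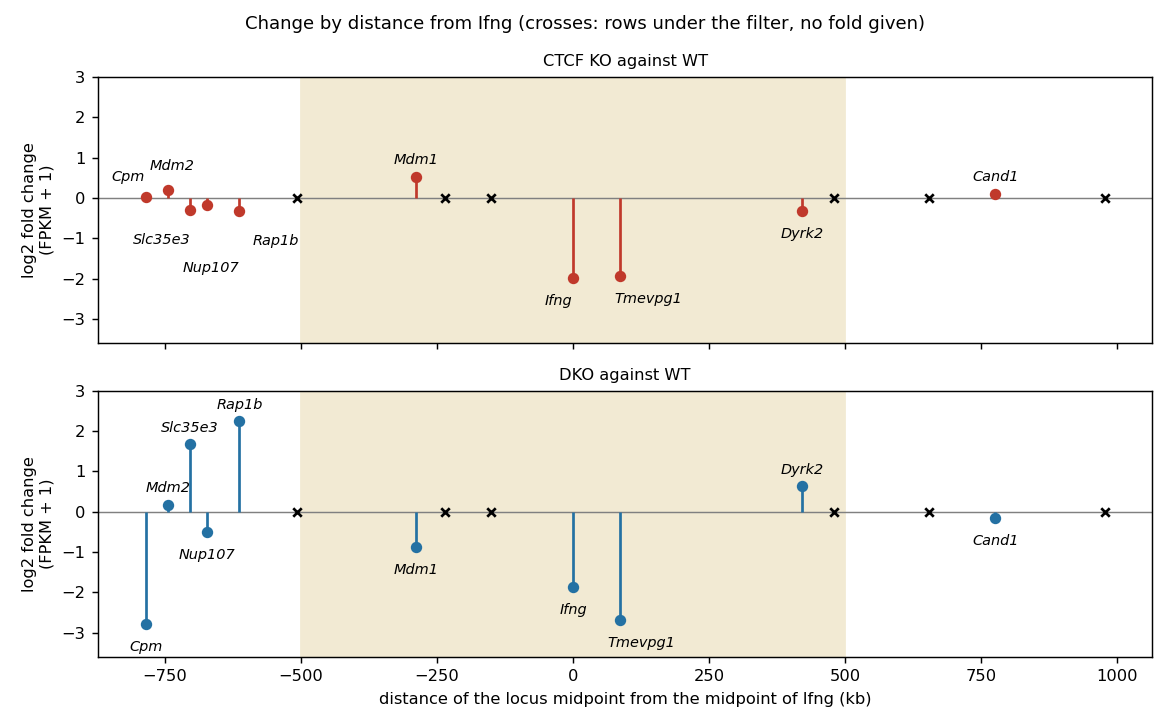
Log2 difference from WT on the log2(FPKM + 1) scale (vertical axis) by distance of each row's midpoint from that of Ifng in kb (horizontal axis), for CTCF KO above and DKO below; shading marks the 500 kb window and crosses mark rows under the filter. In CTCF KO the points beyond 500 kb lie between -0.31 and 0.21, while Ifng and Tmevpg1 lie at -1.99 and -1.93; in DKO, Cpm at -2.80 lies as low as Tmevpg1.

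Genes for the control of Ifng were taken as a list of 26 receptors and transcription factors, of which 22 were tested. In CTCF KO 0 rose and 7 fell, with a median log2 difference of 0.00, against 5.78% higher and 6.37% lower and a median of 0.01 over all tested genes. At an unadjusted p under 0.05, 3 were higher and 9 lower, and the q-values of the authors' deposited table gave 0 and 7. In DKO 13 rose and 7 fell, with a median of 0.33, against 18.5% and 21.9% and a median of 0.01. Of the 13 that rose in DKO, 7 held a GC-rich window, as did 9 of the 22 tested members and 2762 of all 10172 tested genes. Once the GC index entered the fit 8 were higher and 6 lower.

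Of the 22 genes, Tbx21 had the lowest log2 difference in CTCF KO and Eomes the next. Tbx21, which encodes T-bet, read 32.1, 30.2 and 30.4 FPKM in WT, 7.46, 8.99 and 8.88 in CTCF KO, and 23.3, 20.5 and 22.2 in DKO. Its log2 difference was -1.76 in CTCF KO (SE 0.10, adjusted p = 6.69e-06) and -0.47 in DKO (SE 0.10, adjusted p = 0.00391). Whether these falls of Tbx21 bear on Ifng was not tested. Eomes, the related T-box factor, varied widely in WT at 6.05, 9.38 and 23.4 FPKM. In CTCF KO it read 5.91, 2.46 and 1.0, which was not called by limma (adjusted p = 0.0523). These libraries nonetheless lay under every WT library, and the q in the authors' deposited table was 0.000488. In DKO Eomes read 1.96, 2.35 and 2.15 and fell (adjusted p = 0.0128). Its highest transcript window was 84% GC. Within WT and within CTCF KO its values rose with the GC index of the library.

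The chains of the interleukin-18 receptor parted in DKO. Il18r1 averaged 16.4 ± 1.36 FPKM in WT, fell to 7.23 ± 1.55 in CTCF KO (adjusted p = 0.0012) and rose to 38.2 ± 1.90 in DKO (adjusted p = 0.000192). Il18rap, the accessory chain, fell from 16.7 ± 2.29 to 6.11 ± 0.760 in CTCF KO (adjusted p = 0.000652) and to 3.29 ± 0.603 in DKO (adjusted p = 7.65e-06). On the interleukin-12 side, Stat4 fell from 144 ± 12.6 to 104 ± 7.69 and 82.4 ± 3.14 FPKM (adjusted p = 0.00544 and 6.1e-05), and the receptor chain Il12rb1 from 11.4 ± 0.121 to 7.29 ± 1.52 and 5.48 ± 0.269 (adjusted p = 0.0232 and 0.000682). The other receptor chain, Il12rb2, went the other way in DKO. It averaged 2.07 ± 0.295 FPKM in WT and 2.12 ± 0.706 in CTCF KO, which was not called (adjusted p = 0.992). In DKO Il12rb2 rose to 5.37 ± 0.467 FPKM (adjusted p = 0.00117). Stat4, Il12rb1 and Il12rb2 were chosen after their values were seen. Hopx, a homeodomain cofactor of helper T cells, fell from 86.1 ± 9.81 to 37.0 ± 1.36 and 54.4 ± 10.8 FPKM (adjusted p = 0.000653 and 0.00435).

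Other members of the list moved in DKO. Gata3, the factor of the T helper 2 programme, rose from 21.4 ± 0.380 to 88.0 ± 1.49 FPKM in DKO (adjusted p = 1.3e-07) and fell to 16.2 ± 1.44 in CTCF KO (adjusted p = 0.0105, with a q of 0.126 in the authors' deposited table). Prdm1, which encodes the effector repressor Blimp, rose from 0.385 ± 0.155 to 3.54 ± 0.283 FPKM in DKO (adjusted p = 1.28e-05). All WT and CTCF KO libraries of Prdm1 lay under 1 FPKM. It passed the filter only through DKO, where it is high, so its call there gives no support. Id2, an inhibitor of E proteins, fell from 132 ± 1.09 to 61.0 ± 4.27 FPKM in DKO (adjusted p = 1.51e-06). The mean values of Prdm1 and Id2 in CTCF KO, 0.119 and 152 FPKM, were not called (adjusted p = 0.203 and 0.0774).

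**Figure D3:**
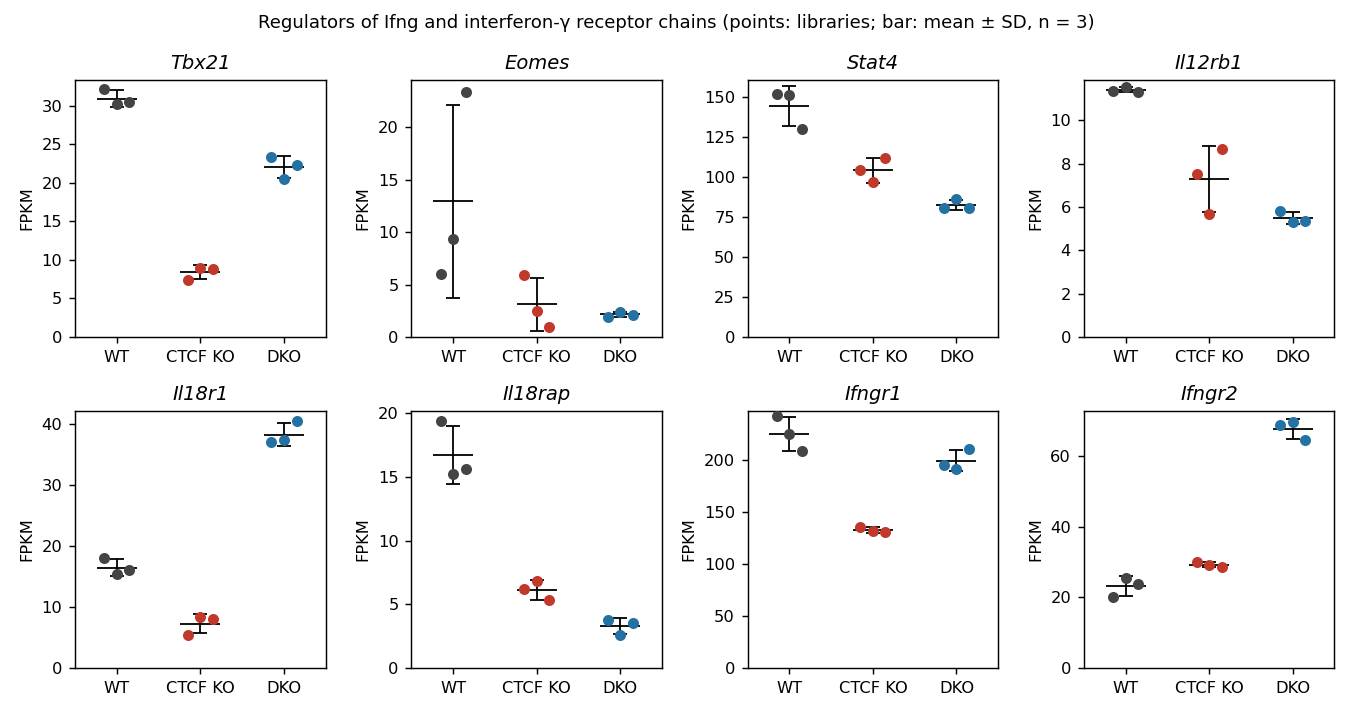
FPKM in each library (points) of 6 genes that act upstream of Ifng and of both interferon-γ receptor chains, with bars for the mean ± SD of 3 libraries. Tbx21 is lowest in CTCF KO, at 8.44, and Il18r1 is highest in DKO, at 38.2.

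Of 12 genes for the interferon-γ receptor and its signalling, all were tested. In CTCF KO 2 rose and 1 fell, with a median of -0.04, against 12.2% of all tested genes called in either direction. In DKO 2 rose and 2 fell, with a median of 0.06, against 40.4%. Ifngr1, the ligand-binding chain, read 241, 224 and 209 FPKM in WT and 135, 131 and 130 in CTCF KO, a fall by 0.76 on the log2 scale (SE 0.06, adjusted p = 0.000124). In DKO it read 195, 191 and 210 and was not called (adjusted p = 0.0556). Ifngr2, the signalling chain, read 20.2, 25.6 and 23.8 FPKM in WT, rose to 30.0, 29.1 and 28.6 in CTCF KO (adjusted p = 0.0438), and rose to 68.8, 69.6 and 64.5 in DKO (adjusted p = 1.78e-06). The feedback inhibitor Socs3 rose in CTCF KO, from 43.2 ± 2.11 to 59.9 ± 4.67 FPKM (adjusted p = 0.00364). In DKO Jak1, a kinase of the receptor, fell from 488 ± 30.5 to 400 ± 11.2 FPKM (adjusted p = 0.00478), Jak2 rose from 4.34 ± 0.774 to 7.91 ± 3.02 (adjusted p = 0.0376), and the phosphatase Ptpn2 fell from 137 ± 9.05 to 108 ± 9.94 (adjusted p = 0.0145). With the GC index as a covariate, 1 of the 12 was higher and 0 lower in DKO. The DKO count of 4 became 2 without DKO column 2 and 7 without WT replicate 3. In the authors' deposited table the q of Ifngr2 in CTCF KO was 0.256 and that of Ptpn2 in DKO was 0.0786.

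Of 34 genes that interferon-γ induces 28 were tested. In CTCF KO 2 rose and 3 fell (median -0.09), against 5.78% and 6.37% of all tested genes. That count depended on the libraries and the tool: the q-values of the authors' deposited table gave 0 higher and 2 lower, and 1 to 3 in all were called by limma without any 1 of CTCF KO replicates 1, 2 and 3 or WT replicates 1 and 2. In DKO 10 rose and 5 fell (median 0.10), against 18.5% and 21.9%. In CTCF KO the chemokine Cxcl10 fell from 4.47 ± 1.04 to 1.90 ± 0.615 FPKM (adjusted p = 0.0177), the guanylate-binding protein Gbp3 from 17.3 ± 1.48 to 12.1 ± 1.51 (adjusted p = 0.024), and the adhesion molecule Icam1 from 65.2 ± 5.15 to 47.8 ± 1.22 (adjusted p = 0.00388). Tgtp2, an interferon-induced GTPase, rose from 35.4 ± 2.01 to 46.5 ± 3.46 FPKM (adjusted p = 0.021), but its reads may be split with the near-identical Tgtp1. The other gene that rose, the tRNA synthetase Wars, was chosen after its values were seen (74.6 ± 5.91 to 89.6 ± 3.74 FPKM, adjusted p = 0.0381). In DKO the immunoproteasome subunit Psmb9 fell from 528 ± 18.6 to 296 ± 16.9 FPKM (adjusted p = 3.61e-06) and Gbp3 to 5.95 ± 0.140 (adjusted p = 1.51e-05). Gbp4 rose from 71.7 ± 4.12 to 96.7 ± 0.774 (adjusted p = 0.000395), and Tgtp2 reached 55.9 ± 4.76 FPKM (adjusted p = 0.000399).

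Among other cytokine genes of T cells, some fell in CTCF KO and rose in DKO. Of 31 listed 16 were tested: 2 rose and 4 fell in CTCF KO (median -0.10), against 5.78% and 6.37% of all tested genes, and 6 rose and 5 fell in DKO (median 0.04), against 18.5% and 21.9%. The chemokine Ccl5 fell from 278 ± 18.5 to 75.7 ± 8.31 FPKM in CTCF KO (adjusted p = 1.43e-06) and rose to 1471 ± 4.09 in DKO (adjusted p = 5.51e-08). Fasl, which encodes the death ligand of T cells, fell from 5.74 ± 0.263 to 1.35 ± 0.139 in CTCF KO (adjusted p = 1.62e-05) and rose to 133 ± 6.64 in DKO (adjusted p = 4.51e-09). Ccl4 fell from 43.8 ± 1.52 to 13.5 ± 2.52 FPKM in CTCF KO (adjusted p = 6.74e-05), and its 36.7 ± 2.99 in DKO was not called (adjusted p = 0.134). Lta, which encodes lymphotoxin α, rose in both, from 12.3 ± 0.437 to 21.2 ± 0.904 and 28.2 ± 0.676 FPKM (adjusted p = 0.00037 and 3.89e-06). Csf1, a macrophage growth factor, rose from 0.0812 ± 0.119 to 2.43 ± 0.437 FPKM in DKO (adjusted p = 2.82e-05), with a q of 0.377 in the authors' deposited table. The WT mean of Csf1 lay under the filter's 1 FPKM, so its call is given as a description.

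Receptors and regulators of interleukin-22 and its cell types were mostly under the filter, with 6 of 13 tested. In CTCF KO 1 rose and 0 fell (median 0.11), against 12.2% of all tested genes called; at an unadjusted p under 0.05, 2 were higher and 1 lower, and by the authors' deposited q-values 1 and 0. In DKO 1 rose and 2 fell (median 0.01), against 40.4% called. Il6st, the shared receptor chain gp130, rose from 43.2 ± 1.56 to 55.8 ± 0.381 FPKM in CTCF KO (adjusted p = 0.01) and fell to 12.2 ± 0.759 in DKO (adjusted p = 1.59e-07). In DKO Il6ra fell from 18.7 ± 8.30 to 6.49 ± 1.15 FPKM (adjusted p = 0.0108), and the nuclear receptor Rora rose from 0.699 ± 0.0732 to 1.20 ± 0.162 (adjusted p = 0.0432). The WT mean of Rora lay under the filter's 1 FPKM, so its call is given as a description.

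The list of CTCF, cohesin and its loaders, which includes the targeted Ctcf, held 13 genes, all tested. In CTCF KO 0 were called by limma, against 12.2% of all tested genes, with a median of -0.09; at an unadjusted p under 0.05, 1 was higher and 0 lower, and by the authors' deposited q-values 0 were higher and 1 lower, Wapal, which was named after its values were seen. The cohesin ring genes Smc1a and Smc3 read 116 ± 12.5 and 59.7 ± 2.32 FPKM there, against 123 ± 13.4 and 61.5 ± 4.54 in WT. In DKO 4 rose and 3 fell (median 0.17), against 18.5% and 21.9% of all tested genes, and once the GC index entered the fit 0 were higher and 1 lower. Smc1a fell to 76.2 ± 4.34 FPKM in DKO (adjusted p = 0.000681), the cohesin subunit Stag2 from 48.4 ± 4.65 to 34.3 ± 1.98 (adjusted p = 0.00285) and the cohesin regulator Pds5b from 17.1 ± 1.42 to 11.2 ± 0.819 (adjusted p = 0.00129). The loader Mau2 rose from 29.8 ± 3.95 to 40.4 ± 2.05 (adjusted p = 0.00999).

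**Figure D4:**
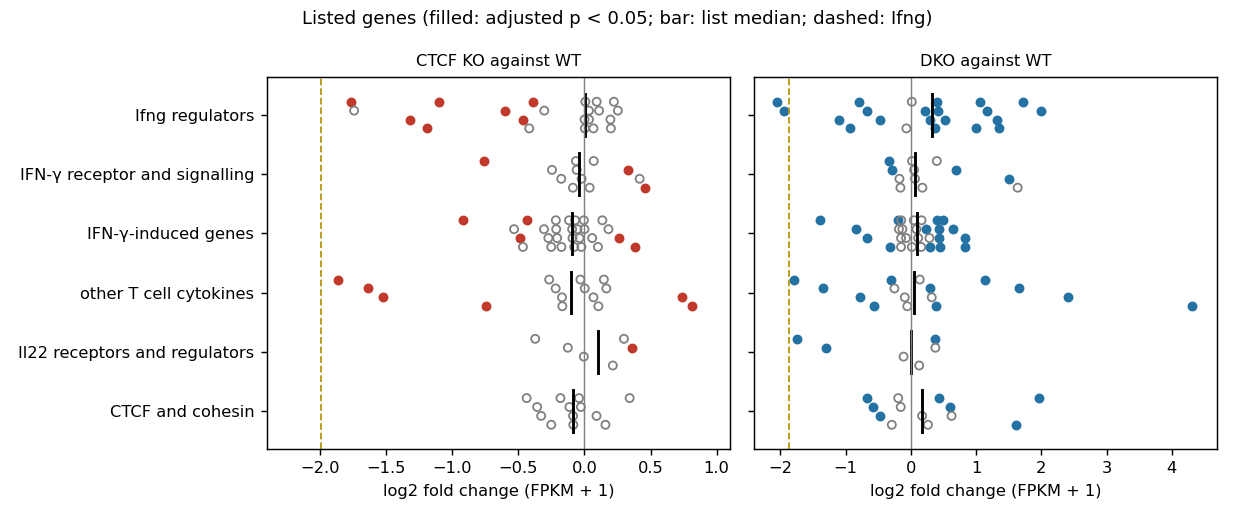
Log2 difference from WT on the log2(FPKM + 1) scale (horizontal axis) of the tested genes of 6 lists (rows), for CTCF KO on the left and DKO on the right; filled points passed an adjusted p under 0.05, bars are list medians and the dashed line is Ifng. Ifng at -1.99 in CTCF KO lies below every listed gene there, and in DKO the regulators Il18rap at -2.05 and Eomes at -1.95 lie below its -1.87.

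Genes whose profile was most like that of Ifng over the 9 libraries were sought by correlation of log2(FPKM + 1). The 5 with the highest Pearson r, given as a description over libraries that fall into 3 groups, were the granzyme gene Gzmm and the chemokine receptor gene Cxcr3 (0.986 each), the small nucleolar RNA Snord22 (0.984), Ywhah (0.981) and the neutrophil granule gene Ngp (0.975). Snord22 and Ngp lay under 1 FPKM in every knockout library and passed the filter only through WT. Their likeness to Ifng, also high in WT, therefore gives no support. Gzmm also lies on chromosome 10, but at chr10:79151764-79158005, far from Ifng. Tmevpg1 had an r of 0.926 and rank 48, and Tbx21 an r of 0.719 and rank 719. In all, 84 tested genes had an r of at least 0.9.

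Likeness in size of change as well as shape gave a partly different set. By mean squared difference of centred log2 values, the nearest were Cxcr3 (0.0362), the Fc receptor gene Fcgrt (0.0503), Klra1, a natural killer receptor gene (0.0985), Plek (0.111) and Camp, a neutrophil granule gene (0.123). Klra1 and Camp likewise lay under 1 FPKM in every knockout library and passed the filter only through WT. Cxcr3 averaged 92.8 ± 6.16 FPKM in WT, 20.2 ± 1.26 in CTCF KO and 19.5 ± 1.22 in DKO. Fcgrt averaged 29.9 ± 2.27, 8.12 ± 1.73 and 8.52 ± 1.03 FPKM. As with Ifng, the levels of both genes in CTCF KO and DKO were close to each other.

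**Figure D5:**
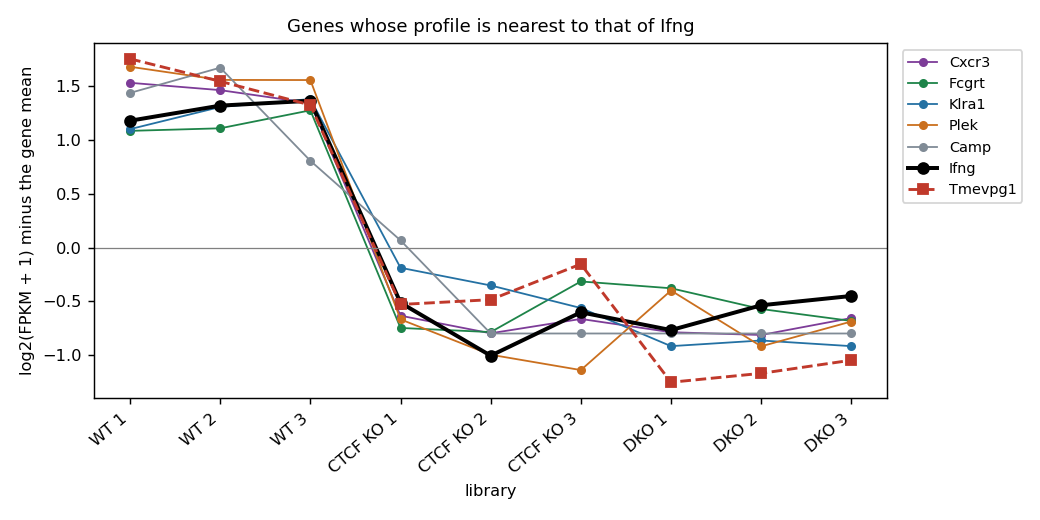
Log2(FPKM + 1) minus the gene's mean over 9 libraries (vertical axis) in each library (horizontal axis) for Ifng, Tmevpg1 and the 5 genes nearest to Ifng in mean squared difference; lines join the points of a gene and stand for no order. All lie above their mean in the 3 WT libraries, and Tmevpg1 is the lowest line in the DKO libraries.

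Some markers of natural killer cells and most of neutrophils were lower in both knockout groups, as Ifng was. The 8 natural killer markers, 6 of them tested, summed to 13.8 to 21.1 FPKM in WT, 3.81 to 5.54 in CTCF KO and 4.62 to 6.48 in DKO. In each comparison 2 of the 6 were lower, Klre1 and Klra9, against 6.37% of all tested genes in CTCF KO and 21.9% in DKO. The defining receptors Ncr1 and Klrb1c read 1.32 and 1.08 FPKM on average in WT, 0.957 and 0.770 in CTCF KO, and 0.970 and 0.881 in DKO, and were called in neither. The 10 neutrophil markers, 7 of them tested, summed to 44.2 to 59.2 FPKM in WT, 15.1 to 20.3 in CTCF KO and 0.841 to 1.56 in DKO. Of the 7, 6 and 7 were lower, against the same shares, and Elane was listed at 0 throughout. Klra9, Ngp, Camp, Ltf and Lcn2 lay under 1 FPKM in every knockout library. Of the knockout libraries, Klre1 reached 1 FPKM in CTCF KO replicate 1 alone (1.33) and Retnlg in CTCF KO replicate 2 alone (1.46). Without WT, where they are high, none of these genes would have passed the filter. Their calls, among them those of Klre1 and Klra9, therefore give no support. Markers of γδ and natural killer T cells summed to 4.47 to 6.41 FPKM in WT, 0.111 to 0.698 in CTCF KO and 4.67 to 4.90 in DKO, nearly all of it Cd163l1, the one tested, which fell in CTCF KO. In DKO it was not called. The cells were sorted on CTV, TCRβ, GFP and CD8, and macrophage and erythroid markers were read in all groups as well, as given below. The part of natural killer cells and neutrophils in the Ifng and Tmevpg1 values was not tested.

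Summed FPKM of CD4 T cell markers was 1.40 to 2.35 in WT, 0.188 to 1.35 in CTCF KO and 1.65 to 1.85 in DKO. That of innate lymphoid cell markers was 1.25 to 1.63, 0.472 to 1.44 and 0.452 to 1.18, and that of dendritic cell markers 7.23 to 8.58, 4.27 to 6.73 and 5.59 to 8.08. B cell markers summed to 58.2 to 62.1, 34.1 to 37.7 and 99.5 to 118 FPKM, with Pax5 listed at 0 throughout. Macrophage markers lay at 103 to 112, 102 to 111 and 101 to 118 FPKM, and erythroid markers at 55.4 to 68.6, 52.4 to 72.2 and 74.7 to 105.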

How the data were processed

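Total RNA was read on an Illumina Hiseq-2000. A single table was deposited by the authors, with FPKM per library and p-values and q-values of their own group comparisons, and it is used as deposited. The submitters' processing notes name FastQC, TopHat2 2.1.0, Cuffdiff 2.2.1 and the builds mm9 and mm10; annotation, strand setting, filters and library scaling are not given in the sources used here. The deposited group means and log2 fold changes were not used. DKO columns were tied to the group only, because their numbering differs from the labels.

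The 10172 genes that reached 1 FPKM in 3 or more of the 9 libraries were fitted as log2(FPKM + 1) in R 4.3.3, using limma 3.58.1 (trended empirical Bayes, two-sided) and 1 mean per group. The p-values were adjusted by Benjamini-Hochberg over all tested genes, and genes were called at an adjusted p under 0.05. The fit was checked on simulated data. Depth is unknown, so no counting intervals are given.

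The genes and lists were chosen with earlier results of these data known. Named were all rows in the window, the nearest row outside it on either side, the targeted genes, Tbx21, Eomes, Ifngr1, Ifngr2, up to 4 called members of each list with the smallest adjusted p (or the 2 most abundant where none was called), and the 5 genes most like Ifng by each of the 2 measures. All 129 listed genes were matched in the table. Alternatives were another pseudocount, other filters, quantile normalization, the authors' q-values, a replicate block, other windows, leaving out each library, and, added after seeing the data, a GC index of the library. GC windows came from GENCODE transcripts, with a value for 99.4% of tested genes.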

Additional observations from a re-analysis of the deposited data

How the results depend on the processing

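No result reversed its direction under the alternatives run. The Ifng difference in CTCF KO, -1.99, was -2.39 with a pseudocount of 0.1 FPKM and -2.09 to -1.84 without each library in turn. In DKO, -1.87 became -2.21 with that pseudocount, -2.09 with the GC index as a covariate and -1.94 to -1.78 without each library. Tmevpg1 was at -2.61 and -4.56 with the smaller pseudocount.

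The count of position-chosen neighbours called in DKO, 1, was 0 with the GC index, 0 within 250 kb and 4 within 1 Mb. In CTCF KO it stayed at 0. Within 500 kb 1 such neighbour was tested, Dyrk2, and within 1 Mb 7 were. The only such row within 250 kb, Iltifb, was under the filter, so the 0 there was fixed in advance. Genes higher in CTCF KO, 588, ranged from 343 to 549 without each library, with 346 and 343 without CTCF KO replicates 2 and 3 and 352 and 381 without WT replicates 2 and 3. Genes lower there, 648, ranged from 411 (without WT replicate 2) to 634. In DKO, genes higher (1886) ranged from 1408 to 1928 and genes lower (2227) from 1818 to 2248. With the GC index these were 974 and 1335, and the authors' deposited q-values gave 1379 lower. Called interferon-γ-induced genes in CTCF KO, 5, ranged from 1 to 6 without each library.

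The replicate block for CTCF KO and WT gave 95 higher and 202 lower. Deviations of same-numbered libraries correlated at -0.619, 0.158 and -0.447, so the numbers do not pair the libraries, and not every library correlated best with its own number. DKO columns carry no sample number. The cause of these shifts was not tested. Low values rest on unknown depth: the FPKM worth of 1 fragment, relative to WT replicate 1, ran from 0.814 to 1.52.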
